A study of Mus musculus with 5 samples.

Results

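Gene deserts are long stretches of chromosome without annotated genes. The ChIP-specific peaks examined here are Nr1d1 peaks in mouse Th1 cells that the authors' annotation places far from any gene start. A peak was taken as a desert peak where the authors' annotation placed it in the class Intergenic and gave an absolute distance of more than 100000 bp to the nearest transcription start site (TSS). Of the 14469 annotated ChIP-specific peaks, 2530 (17.5%) met this rule, and among the 8279 intergenic ones they made up 30.6%. The name desert follows that annotation alone. By RefSeq gene bodies, 296 of the 2530 (11.7%) lay inside a gene and 992 (39.2%) lay over 100 kb from every gene. ChIP-specific peaks are Nr1d1 ChIP peaks without an overlapping IgG peak, and 2 of the 14471 in that list had no annotation. IgG peaks picked by the same rule numbered 3166 of 17110. A further 789 desert peaks of the ChIP overlapped an IgG peak and are named shared ChIP desert peaks.

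Naive CD4 T cells came from C57BL/6 mice, wild type and aged 4 to 6 weeks. These cells were stimulated in culture with antibodies against CD3 and CD28, steered towards Th1 with IL-12, IFNγ and a blocking antibody against IL-4, and harvested on day 3 to 4. The groups were 3 Nr1d1 ChIP libraries (a to c), 1 library of input DNA and 1 IgG mock, all from the same kind of cell and without any genetic change. All 5 libraries carry the Nr1d1 antibody in their antibody label, so the groups were read from the titles. Each deposited list covers 1 antibody as a whole and was made over the same input, so no spread between libraries can be given, the read depth is unknown and no test was made. Intervals in the text are 95% intervals over peaks (Wilson for a share, Newcombe for a difference of shares, order statistics for a median) and cover counting error only.

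Nr1d1, also known as REV-ERBα, is a heme-binding nuclear receptor that lacks the activation helix of most nuclear receptors, recruits the NCoR-HDAC3 corepressor and is an arm of the circadian clock. It binds DNA at the half-site AGGTCA, as a monomer beside an A/T-rich flank (the RORE) or as a pair on a direct repeat. In liver and macrophages many of its sites lie in distal enhancers, and enhancers of developmental genes are often found far out in gene deserts. The lists assign a peak to a gene by distance alone.

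A few desert peaks reached into a RefSeq promoter window, which runs from 250 bases before to 50 after a RefSeq transcript start in GRCm38.p6 (mm10, as in the files). They are shown because they are the desert peaks that the rule on the authors' annotation admits although RefSeq starts a transcript there. Of 2530 ChIP-specific desert peaks, 4 reached into such a window. The stretches that 3 of them shared with the window are printed 5′ to 3′ on the strand of the gene, with CG dinucleotides in capitals, and the stretch of the fourth, at Gm36794, was 3 bases long. The last line is from an IgG desert peak, for comparison.
Fat3, minus strand, chr9:16502005-16502074: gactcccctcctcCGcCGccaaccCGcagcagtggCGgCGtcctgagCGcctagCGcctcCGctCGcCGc
Gm39244, minus strand, chr8:108537851-108537974: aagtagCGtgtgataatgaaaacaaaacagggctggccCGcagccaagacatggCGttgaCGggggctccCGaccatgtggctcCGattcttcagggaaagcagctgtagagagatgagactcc
Gm40329, plus strand, chr5:126040938-126041074: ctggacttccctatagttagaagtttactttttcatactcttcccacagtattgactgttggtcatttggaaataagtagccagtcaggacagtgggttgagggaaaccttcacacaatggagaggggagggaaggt
LOC108167368, plus strand, chr12:20614801-20614974, IgG peak: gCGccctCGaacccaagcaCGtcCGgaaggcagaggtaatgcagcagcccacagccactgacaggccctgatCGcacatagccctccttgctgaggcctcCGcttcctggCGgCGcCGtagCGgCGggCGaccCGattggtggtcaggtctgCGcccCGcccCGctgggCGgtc
The Fat3 stretch had a GC content of 77.1% and 10 CG dinucleotides in 70 bases. Fat3 encodes a giant atypical cadherin of developing neurons. The peak itself spanned chr9:16501851-16502074 (FDR 0.00880), and its centre lay 92 bp from the RefSeq start, whereas the authors' annotation placed it 123731 bp upstream of the Fat3 TSS it used. The Gm39244 stretch held 54.8% GC and 6 CG dinucleotides, and its peak (chr8:108537851-108537974, FDR 0.0167) was assigned by the authors to Zfhx3, a developmental transcription factor, at 165188 bp. The Gm40329 stretch, at a lncRNA, held 44.5% GC and no CG dinucleotide. The median GC content of all 32851 RefSeq promoter windows was 52.7%. The half-site AGGTCA was searched on both strands and is in none of the printed ChIP-specific or IgG stretches, which are shorter than the 300-base windows and say nothing of binding. Of all such windows 16.3% hold it. Among the 3166 IgG desert peaks, 7 reached into a promoter window, with a GC content of 33.3% to 70.1% and 0 to 17 CG dinucleotides in the shared stretch. The one printed, at LOC108167368, is the upper end of both ranges.

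Desert peaks made up a slightly smaller part of the ChIP-specific list than of the IgG list. Their share was 17.5% (16.9 to 18.1) of ChIP-specific peaks and 18.5% (17.9 to 19.1) of IgG peaks, a difference of -1.02 percentage points (-1.87 to -0.167). With a distance over 200 kb the difference was -0.254 points (-0.852 to 0.348), and for peaks of 200 bp or more -1.01 points (-2.16 to 0.140), so that both intervals included 0. Against the 11990 IgG peaks without any ChIP overlap, of which 19.8% lay in deserts, the difference was -2.33 points (-3.28 to -1.39). Shared ChIP peaks had a lower desert share, 15.4% (14.5 to 16.4) of 5115, and the ChIP-specific share exceeded it by 2.06 points (0.876 to 3.21). The desert share varied with the rank of the peak. Among ChIP-specific peaks ordered by FDR and split into 4 parts of similar size, it was 15.8% in the first part, 16.5% in the second, 19.1% in the third and 18.6% in the last, and in the IgG list it went from 16.6% in the first part to 20.1% in the last. An FDR of 0, as printed, was given to 162 ChIP-specific peaks, of which 17 were desert peaks, or 10.5% (6.66 to 16.2), beside 472 of 2934 (16.1%) in the IgG list. These lists are unlike, because the IgG list keeps its peaks that overlap a ChIP peak. With shared peaks included, 268 of 1762 such ChIP peaks (15.2%) were desert peaks. Among IgG peaks without ChIP overlap it was 114 of 737 (15.5%).

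The peaks spread far beyond the threshold. Their median distance to the nearest TSS was 185019 bp (179420 to 191091), the quartiles were 132711 and 285835 bp, and the farthest peak lay 961242 bp away. Of the 2530 peaks, 1137 (44.9%) lay beyond 200 kb and 167 (6.60%) beyond 500 kb. IgG desert peaks had a median of 182518 bp, and 43.8% of them lay beyond 200 kb. The nearest members inside the threshold were at Gm6027 (100037 bp), Pja1 (100039 bp) and Epha5 (100068 bp), and those just outside it were at Gm21745 (99947 bp), Gm23674 (99927 bp) and Gm17929 (99899 bp). Peaks lay about equally on both sides of the TSS, with 49.5% (47.5 to 51.4) downstream, against 47.2% of IgG desert peaks.

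**Figure D1:**
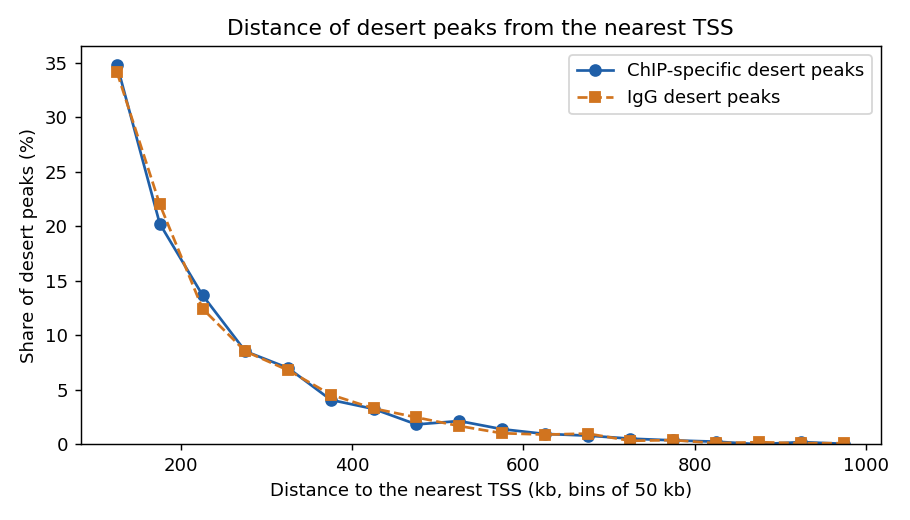
Share of ChIP-specific desert peaks (blue circles) and IgG desert peaks (orange squares) by distance to the nearest TSS, in bins of 50 kb. Both curves fall together, from 34.8% of ChIP-specific and 34.1% of IgG desert peaks in the first bin.

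ChIP-specific desert peaks were short, and so were other ChIP-specific peaks. Their median length was 175 bp, against 200 bp for the other 11939 ChIP-specific peaks, 200 bp for IgG desert peaks and 300 bp for shared ChIP desert peaks. Lengths come in steps of 25 bp. ChIP-specific and shared peaks are told apart by overlap with an IgG peak, and a longer peak has more room to overlap. The part of this split in their lengths was not tested. Peaks of 150 bp or less made up 38.7% (36.8 to 40.6) of ChIP-specific desert peaks, 34.7% (33.1 to 36.4) of IgG desert peaks and 11.03% (9.03 to 13.4) of shared ones. Peaks of 300 bp or more made up 9.80%, 14.3% and 50.95%. Among other ChIP-specific peaks, 36.8% (35.92 to 37.65) were of 150 bp or less and 12.75% (12.16 to 13.36) of 300 bp or more. For ChIP-specific intergenic peaks within 100 kb these shares were 37.55% and 12.26%. The median FDR was 0.0158 in ChIP-specific desert peaks, 0.0144 in other ChIP-specific peaks, 0.00996 in IgG desert peaks and 0.00597 in shared ones. An FDR printed as 0 was given to 0.672% of ChIP-specific desert peaks and to 1.215% of other ChIP-specific peaks. For ChIP-specific intergenic peaks within 100 kb the share was 1.165%, so it was low throughout the ChIP-specific list. Among IgG desert peaks it was 14.9%, and among shared ones 31.8%. The ChIP-specific and IgG sets are unlike, because the IgG set keeps its peaks that overlap a ChIP peak. Of the 2376 IgG desert peaks without ChIP overlap, 114 had an FDR printed as 0. Among all 3319 ChIP desert peaks, shared ones included, 268 had it. The FDR of the 2 lists is the authors' and was set separately in each, so its levels are a description of each list.

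**Figure D2:**
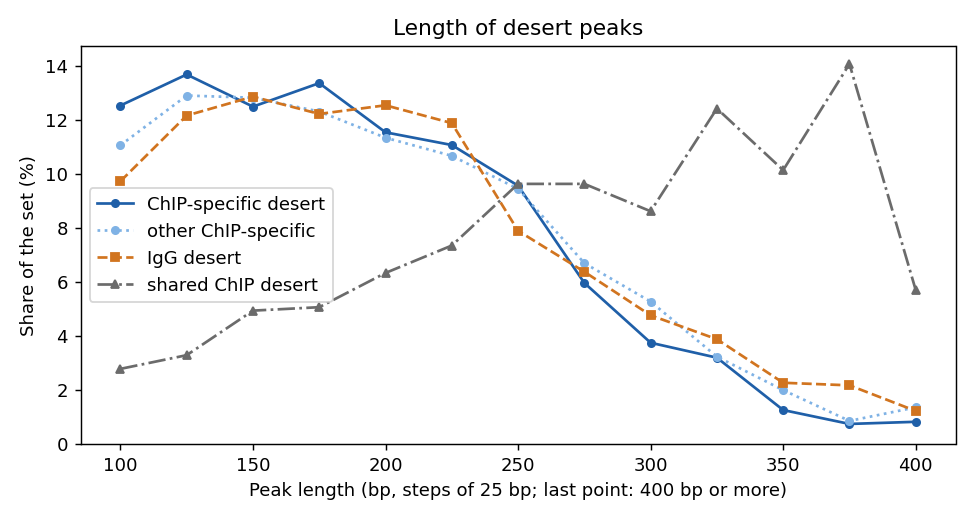
Length of desert peaks as a share of each set, in steps of 25 bp, with 400 bp and more in the last point. The median was 175 bp for ChIP-specific desert peaks, 200 bp for other ChIP-specific and for IgG desert peaks, and 300 bp for shared ChIP desert peaks. Shared peaks are picked by overlap, which is not independent of length.

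The first ChIP-specific desert peak by FDR and length was 650 bp long and lay at chr15:11787301-11787949, 118049 bp downstream of the TSS of Npr3, the clearance receptor for natriuretic peptides. It was followed by a peak of 625 bp at chr8:15519676-15520299, assigned to the predicted gene Gm25255 at 101451 bp, with Csmd1, a large complement-regulating membrane protein of the brain, as the nearest protein-coding gene at 372239 bp. The third was 400 bp long and lay at chr12:6707051-6707449, 673080 bp from the TSS of 1700101O22Rik. The next 6 were each 375 bp long. They were assigned to Gm23777, Gm27670, Gm27359, RP24-122G17.1, Gm9871 and Cntnap4, a neurexin-family adhesion protein of interneurons, whose peak lay at chr8:113047426-113047799, 273958 bp from its TSS. The tenth, of 350 bp, was nearest to Gm12005. None of these 10 overlapped an IgG peak, as the list requires, but IgG peaks lay between 2477 bp (Gm25255) and 338302 bp (Gm23777) away. The 5 IgG desert peaks first by the same order were 625 bp long at Gm7816, 600 bp at Chrna7, and 550 bp each at Cadm2, Redrum and Gm14672, so that from the third on they were longer than the ChIP-specific ones.

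The peak farthest from any TSS lay at chr10:15945826-15945999, 961242 bp from Gm23892, and was 175 bp long with an FDR of 0.0165. Others lay 943972 bp upstream of Pik3c3 (the class III phosphoinositide kinase of autophagy), 910449 bp downstream of Pcdh17 (a protocadherin) and 908331 bp upstream of Grm7 (a metabotropic glutamate receptor). The remaining 6 of the 10 farthest peaks were assigned to Gm24246 with 3 peaks, to Gm9578, to Edem1 and to Gm21614. Of these 10, 7 had a RefSeq gene of some kind within 100 kb, the nearest being Gm35467 at 2463 bp from the Grm7 peak. The widest gap to a protein-coding RefSeq gene body was 2243026 bp, at chr14:90770476-90770674, with Pcdh9 as the nearest protein-coding gene.

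RefSeq gene bodies of the same build gave another view of the deserts. Of the ChIP-specific desert peaks, 296 (11.7%) lay inside a RefSeq gene and 992 (39.2%) lay over 100 kb from every RefSeq gene. From protein-coding genes 2232 (88.2%) lay over 100 kb away, 711 (28.1%) over 500 kb and 256 (10.1%) over 1 Mb, with a median gap of 286017 bp (275212 to 298554). IgG desert peaks had 11.9% inside a RefSeq gene, 39.7% over 100 kb from every one, and a median gap to protein-coding genes of 293384 bp (282699 to 308597). In all, 67 ChIP-specific desert peaks (2.65%) lay inside 28 protein-coding RefSeq genes, and for 28 of the 67 the authors' annotation named that same gene. The share inside protein-coding genes was 2.27% (72 of 3166) for IgG desert peaks and 4.04% for ChIP-specific intergenic peaks within 100 kb. Rbfox1, a neuronal splicing factor, held 8 of them. Rarb, the retinoic acid receptor β, held 6 peaks, all of which the authors placed between 209928 and 368753 bp from a Rarb TSS. Agbl1, a tubulin-modifying carboxypeptidase, and Nrg1, a growth factor for ERBB receptors, held 6 each, and Robo1, a Slit receptor of growing axons, held 5. Ppargc1a, the coactivator PGC-1α of mitochondrial genes, held 4 peaks, which the authors placed between 154630 and 231192 bp from a TSS, and 1 of them, at chr5:51722351-51722599 (FDR 0.00928), was assigned to Ppargc1a itself. IgG counts inside single genes are not given here. By the nearest protein-coding body, peaks outside it included, Rbfox1 had 18 ChIP-specific and 22 IgG desert peaks. Rarb had 8 and 7, and Robo1 had 8 and 10. The genes with peaks inside them were chosen after their values were seen.

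The nearest genes of desert peaks were mostly predicted or noncoding. Names of that form (Gm with digits, Rik, Mir, Snor, n-R or LOC) were nearest to 65.5% (63.6 to 67.3) of ChIP-specific desert peaks, 66.8% of IgG desert peaks, 59.3% of ChIP-specific intergenic peaks within 100 kb and 44.9% of all other ChIP-specific peaks. The difference from all other ChIP-specific peaks was 20.5 points (18.5 to 22.6), and that from IgG desert peaks was -1.35 points (-3.83 to 1.12). A RefSeq entry was found for the nearest gene of 76.8% of the peaks. By its type, 30.0% of all peaks were nearest to a protein-coding gene, 18.1% to a pseudogene, 9.72% to an snRNA, 8.30% to an snoRNA and 7.11% to a lncRNA. The snRNA share was 3.00% and the snoRNA share 2.92% among other ChIP-specific peaks, whereas IgG desert peaks had 8.91% and 7.36% and shared ChIP desert peaks 11.03% and 8.49%. Among ChIP-specific intergenic peaks within 100 kb they were 4.28% and 4.71%. Of those peaks 34.1% were nearest to a protein-coding gene and 20.4% to a pseudogene.

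The 2530 peaks were spread over 1225 nearest genes, of which 665 had a single peak and 104 had 5 or more. IgG desert peaks had 1330 nearest genes, and 834 genes were in both sets, which is 68.1% of the ChIP-specific and 62.7% of the IgG genes. The lists share the input control and the same distance rule picked both sets, so their values are given side by side. Here and below, ChIP-specific counts leave out ChIP peaks that overlap an IgG peak, whereas IgG counts keep IgG peaks that overlap a ChIP peak. Gm24246 had 14 ChIP-specific and 14 IgG desert peaks, and its neighbour Pik3c3 had 13 and 19. Gm23752 had 13 and 8, Gm23986 had 12 and 17, and Unc5d, a netrin receptor, had 10 and 6. Among the genes with 9 ChIP-specific desert peaks, 1700101O22Rik had 14 IgG peaks, Csmd1 had 6, Gm22777 had 5, and Gm23980 and Gm27935 had 7 each. At every one of these 10 genes IgG desert peaks were present in numbers from 5 to 19. Shared ChIP desert peaks numbered from 0 (Gm23752, Csmd1 and Gm22777) to 6 (Gm23986). Lower IgG counts were seen at Ttc6, with 7 ChIP-specific and 1 IgG desert peak beside 1 shared ChIP one, and at Nrxn3, a presynaptic neurexin, with 4 ChIP-specific and 0 IgG ones. Both were singled out after their values were seen.

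By the authors' nearest gene, 5 of 2530 ChIP-specific desert peaks (0.198%) and 1 of 3166 IgG desert peaks (0.0316%) were nearest to a gene of the T helper and cytokine list. Over other ChIP-specific peaks that share was 0.159%, close to that of desert peaks. Ifng, the signature cytokine of Th1 cells, had 1 ChIP-specific desert peak at chr10:118610501-118610749, 169578 bp from its TSS, with an FDR of 0.00595, and the nearest IgG peak lay 427402 bp from it. Maf, a transcription factor of IL-4 and IL-10 producing T cells, had 3 peaks on chromosome 8, at 229506, 281281 and 358781 bp upstream. The nearest of them, at chr8:115937251-115937349, lay 152 bp from an IgG desert peak (FDR 0.00148), and the other two lay 51852 and 118352 bp from any IgG peak. Il13ra2, a decoy receptor for IL-13, had 1 peak at chrX:147301076-147301274, 102657 bp from its TSS and 37152 bp from the nearest IgG peak. By the nearest protein-coding gene body, Il7, the survival cytokine of naive T cells, also had 1 peak (chr3:7767976-7768249) at 154216 bp. The nearest IgG peak lay 67627 bp from that peak. By that assignment the list had 6 ChIP-specific desert peaks, and 3 IgG ones of which 1 was at Maf and 2 were at Il12b, a subunit gene of IL-12. The 4 genes with ChIP-specific peaks were 2.88% of the 139 members of the list found in RefSeq, beside 3.92% of all 21900 protein-coding genes, and the 2 genes with IgG peaks were 1.44%.

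No core clock or NCoR-HDAC3 gene was the authors' nearest gene of a ChIP-specific desert peak, where a count of 0 of 2530 allows a share of up to 0.152% (Wilson). Among other ChIP-specific peaks these lists took 0.0921% and 0.0335%, shares within that limit, and 1 IgG desert peak was nearest to a clock gene, Rorb. By the nearest protein-coding body, Rorb, the retinoid-related receptor of retina and brain that binds the same response elements as Nr1d1, had 5 ChIP-specific desert peaks on chromosome 19, from 296130 to 487705 bp away, and 3 IgG desert peaks, from 271930 to 432080 bp away. Tbl1xr1, a subunit of the NCoR complex, had 1 ChIP-specific peak at 709507 bp and 2 IgG peaks.

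By the nearest protein-coding gene body, genes of the synaptic and cell adhesion list were next to more desert peaks than those of any other list. By that assignment, 351 ChIP-specific desert peaks (13.9%) and 451 IgG desert peaks (14.2%) were next to a gene of this list, with 58 and 59 of its 171 members (33.9% and 34.5%). Over all protein-coding genes, 859 of 21900 (3.92%) were nearest to a ChIP-specific and 931 (4.25%) to an IgG desert peak. Cdh9 and Cdh8, classical cadherins of neurons, had 23 and 17 ChIP-specific desert peaks beside 25 and 9 in IgG. Pcdh9, a protocadherin, had 22 beside 9, Csmd1 had 16 beside 16, and Tenm3, a teneurin that pairs neurons across synapses, had 15 beside 30. By the authors' nearest gene the list took 69 ChIP-specific desert peaks (2.73%), with 9 at Csmd1, 8 at Cdh6 and 7 each at Cdh9 and Pcdh17, against 80 in IgG (2.53%). That share was 2.19% among other ChIP-specific peaks.

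By the authors' nearest gene, the axon guidance list took 1.46% of ChIP-specific desert peaks, 1.07% of IgG desert peaks and 0.678% of other ChIP-specific peaks. For developmental transcription factors these shares were 1.15%, 1.07% and 1.27%, and for ion channels and neurotransmitter receptors 1.62%, 1.26% and 1.80%. By protein-coding body, 25.7% of the axon guidance genes, 11.4% of the developmental transcription factors and 14.4% of the channel and receptor genes were nearest to a ChIP-specific desert peak, and 29.7%, 14.1% and 13.3% to an IgG one. Axon guidance genes were next to 72 ChIP-specific desert peaks (2.85%) and 91 IgG desert peaks (2.87%) by protein-coding body. Unc5d had 17 and 13 of them, the Slit receptor Robo1 had 8 and 10, the ephrin receptor Epha4 had 8 and 3, and the ligands Efnb2 and Slit2 had 6 and 12, and 5 and 6. Developmental transcription factors were next to 105 (4.15%) and 113 (3.57%). In that list Irx1, of the Iroquois homeobox family, had 9 and 12, Gata6, an endoderm and heart factor, had 8 and 2, Rarb had 8 and 7, and Sox2, a stem cell and neural factor, had 7 and 7. Ion channels and neurotransmitter receptors were next to 99 (3.91%) and 110 (3.47%). There the glutamate receptor genes Grik2 and Grin2a had 11 and 15, and 9 and 11, and Adra2a, an adrenergic receptor, had 6 and 4. Olfactory and vomeronasal receptors, which lie in dense clusters, had 1 ChIP-specific and 4 IgG desert peaks by protein-coding body. By the authors' nearest gene they had 0 in each list, and they were nearest to 1.37% of other ChIP-specific peaks.

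**Figure D3:**
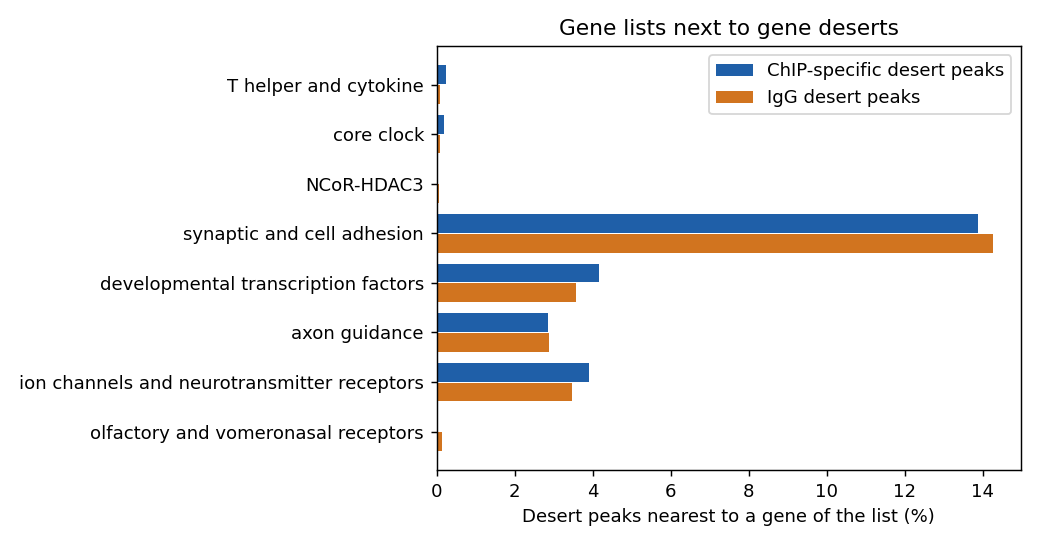
Share of ChIP-specific (blue) and IgG (orange) desert peaks whose nearest protein-coding RefSeq gene body belongs to each gene list. The synaptic and cell adhesion list stands highest, with 13.9% of ChIP-specific and 14.2% of IgG desert peaks.

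Of the 1113 protein-coding genes nearest to any desert peak, 677 were nearest to both kinds, which is 78.8% of the ChIP-specific and 72.7% of the IgG genes. A further 182 genes had ChIP-specific desert peaks and no IgG one, and 254 had IgG desert peaks and no ChIP-specific one. The genes nearest to ChIP-specific desert peaks were 859 of 21900 protein-coding genes (3.92%), and those nearest to IgG ones were 931 (4.25%). The median number of desert peaks per gene was 2 in each list. The part of such low counts in the unshared genes was not tested.

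Chromosomes differed widely in their desert share in both lists. The desert share of ChIP-specific peaks was highest on chromosomes 12 (32.0%), 15 (29.3%) and 8 (27.0%), where it was 28.5%, 29.4% and 27.6% in IgG. The highest IgG share was on chromosome 18, with 30.3% beside 25.5% of ChIP-specific peaks. Apart from Y, with 4 desert peaks, it was lowest on X (7.67%), 2 (8.84%) and 11 (9.03%), where it was 8.64%, 8.53% and 13.1% in IgG. Chromosome X held 4.51% (3.76 to 5.39) of ChIP-specific desert peaks and 11.5% (10.9 to 12.1) of other ChIP-specific peaks, a difference of -6.99 points (-7.93 to -5.94), and 5.15% of IgG desert peaks. Predicted or noncoding genes were nearest to 73.6% of intergenic ChIP-specific peaks on X, 72.8% on 2, 72.0% on 11 and 75.7% on 4, where the desert share was 12.1%. On the other autosomes this was between 44.7% (chromosome 3) and 67.9% (chromosome 12), and a low desert share also went with 63.1% on chromosome 1 (desert share 11.7%) and 51.3% on chromosome 7 (12.4%). The part of gene naming in the result was not tested. By distance to RefSeq gene bodies the order was another. On X, 8.61% of ChIP-specific peaks lay over 100 kb from every RefSeq gene and 33.6% from every protein-coding one, beside 7.78% and 44.4% on chromosome 12. X then held 9.72% of all such peaks by RefSeq genes of any kind and 10.3% by protein-coding ones. In gaps of over 200 kb between RefSeq genes, ChIP-specific peaks were denser on X, with 8.93 per Mb against 6.43 over all autosomes, and so were IgG peaks, with 12.6 against 8.16. Single autosomes ranged from 3.86 (chromosome 10) to 9.34 ChIP-specific peaks per Mb (chromosome 8), so X was not the densest.

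**Figure D4:**
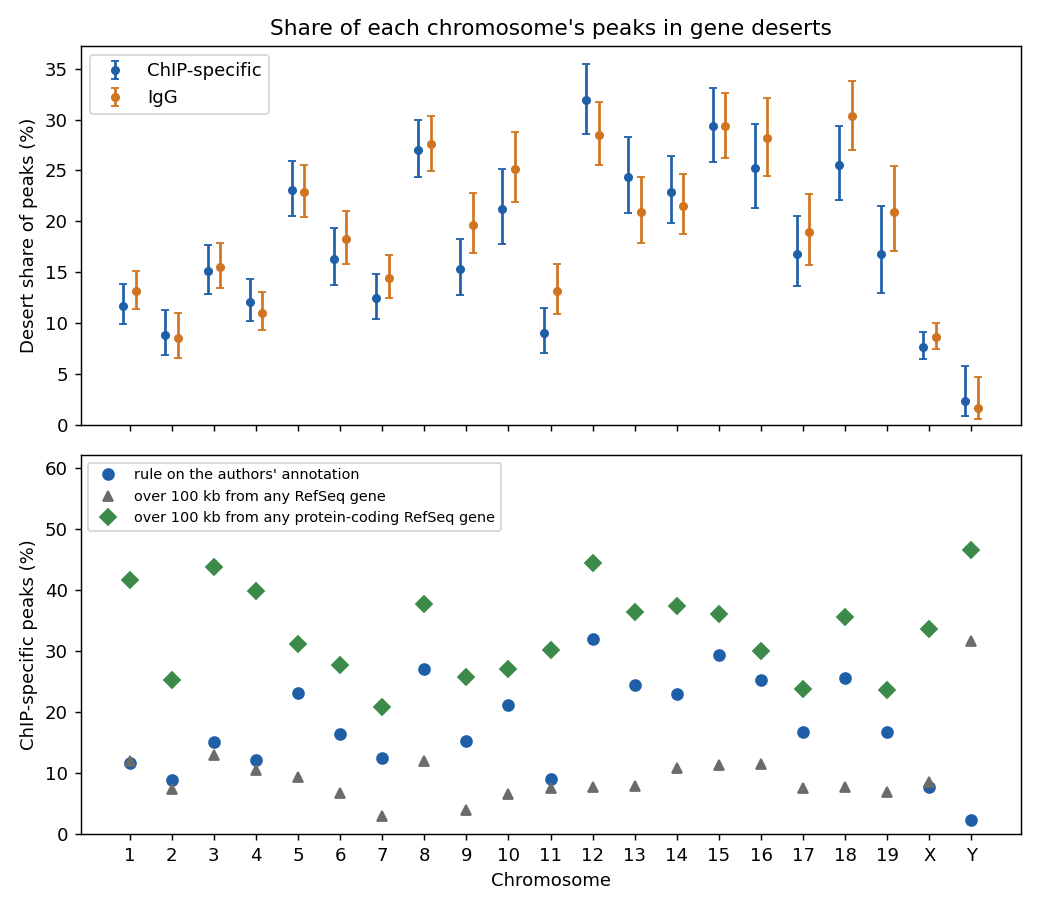
Upper panel, share of each chromosome's peaks that are desert peaks, for ChIP-specific (blue) and IgG (orange) peaks with 95% Wilson intervals. Lower panel, the share of ChIP-specific peaks that are desert peaks by the authors' annotation (blue circles), or that lie over 100 kb from any RefSeq gene (grey triangles) or any protein-coding RefSeq gene (green diamonds), and X stands low only among the blue circles.

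Most ChIP-specific desert peaks had an IgG peak and another ChIP-specific desert peak within 100 kb. The median gap from a ChIP-specific desert peak to the nearest IgG peak was 32540 bp (30302 to 34577), with 20.3% within 10 kb and 84.3% within 100 kb. To the nearest other ChIP-specific desert peak it was 48752 bp (45277 to 51277), with 16.2% within 10 kb and 68.7% within 100 kb. The first gap runs to any of 17111 IgG peaks and the second to 2530 desert peaks, so they are not alike. With an FDR of 0.01 or less, the shares within 100 kb were 62.5% and 28.1%. That cut leaves fewer desert peaks, and the part of their number in these shares was not tested. The same gaps are not given for other ChIP-specific peaks. IgG desert peaks lay 35827 bp from one another, with 19.4% within 10 kb and 75.02% within 100 kb. Joined at gaps of up to 10 kb, the peaks formed 182 pairs and 15 groups of 3, and 2121 stood alone.

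In windows of 1 Mb, 882 windows held a ChIP-specific desert peak, 330 of them a single one, and 176 held 5 or more. IgG desert peaks were in 927 windows, and 724 windows held both, which is 82.1% of the former and 78.1% of the latter. The same distance rule picked both sets, so both can lie only in windows with sequence that meets it. The number of such windows is not given here, so the overlap has no base share beside it. The window with most, chr12:6000001-7000000, held 16 ChIP-specific and 12 IgG desert peaks. It lies between Apob, the apolipoprotein of LDL, and Klhl29, and its peaks were assigned to Gm23752 (11) and 1700101O22Rik (5). A window on chromosome 5 from 126000001 held 15 and 17, near Tmem132c, and another on chromosome 18 from 29000001 held 14 and 20, near Pik3c3. The window on chromosome 5 from 133000001, between Auts2, a neurodevelopmental gene, and Castor2, held 13 and 16. The fifth, on chromosome 15 from 86000001, near Tbc1d22a, held 12 and 12. The order rests on the ChIP-specific counts, and each of the 5 windows also held at least 12 IgG desert peaks.

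**Figure D5:**
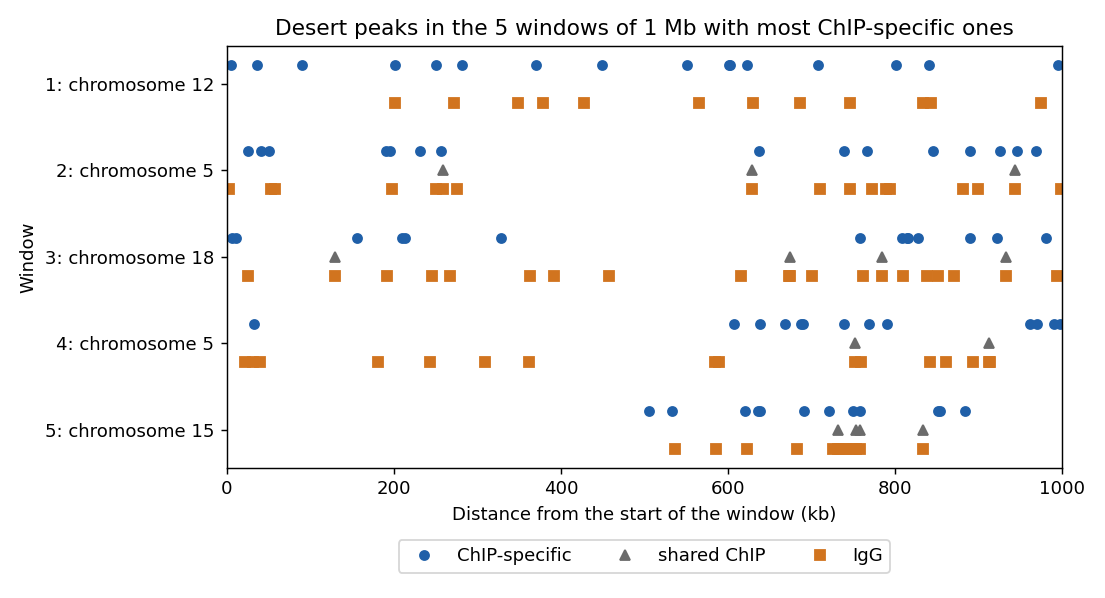
Positions of ChIP-specific (blue circles), shared ChIP (grey triangles) and IgG (orange squares) desert peaks in the 5 windows of 1 Mb with most ChIP-specific ones, by distance from the start of the window. The 16, 15, 14, 13 and 12 ChIP-specific peaks, from top to bottom, lie interspersed with 12, 17, 20, 16 and 12 IgG peaks.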

How the data were processed

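Nr1d1 binding was measured by ChIP-seq in Th1 cells (3 ChIP libraries, 1 IgG mock, 1 input). BWA, HOMER and mm10 are named in the submitters' processing notes, without versions. Which peak caller was run, and how ChIP libraries were pooled, is not given in the sources used here. Deposited by the authors are lists of peaks over input with a q-value per peak, named FDR per the file headers and printed to 6 decimals (largest 0.049986), and HOMER annotations whose score equals the peak length. Starts in the annotation, used here, are 1 bp above those of the lists. Depth behind a peak is unknown.

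Computed here, with Python 3.11.15, pandas 2.3.3, numpy 2.4.6 and scipy 1.17.1, were the rule on class and distance, shares, medians, gaps between edges, and gene assignment by RefSeq bodies (GRCm38.p6, 49603 of 49997 genes, without entries that start before 3 Mb outside Y, which hold patch coordinates). Interval code was tested on simulated data. Peaks are not replicates, so no test was made. Members and gene lists were chosen with earlier results of these data known. Named genes are the first 10 peaks by FDR and length, the 10 farthest, the 10 genes with most peaks, all T helper, clock and NCoR-HDAC3 members, up to 5 of each other list, the 5 densest windows, 5 IgG peaks and 6 at the threshold. Sequences came from RefSeq promoter windows, as no genome was used here.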

Additional observations from a re-analysis of the deposited data

How the results depend on the processing

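Of 61 alternative values, 26 stayed within the counting error of the reported value, 35 moved and 0 reversed. With a distance over 50 kb, the desert share was 29.1% for ChIP-specific and 30.9% for IgG peaks, the median distance 119074 bp and the X share 7.45%. With a distance over 200 kb these were 7.86%, 8.11%, 301900 bp and 1.50%, and 71.0% of desert peaks had another within 100 kb. With an FDR of 0.01 or less, the shares were 15.8% and 17.4%, the median length 250 bp, the median FDR 0.00880, and 62.5% had an IgG peak and 28.1% another desert peak within 100 kb. With peaks of 200 bp or more, the same values were 16.6%, 17.6%, 250 bp, 0.0102, 66.9% and 45.1%. Without chromosomes X and Y the shares were 18.8% and 19.9%, and against IgG peaks without ChIP overlap (19.8%) the difference was -2.33 points. The difference of shares between ChIP-specific and IgG peaks was below 0 under each alternative run for it, and its interval reached above 0 at a distance over 200 kb (-0.852 to 0.348) and for peaks of 200 bp or more (-2.16 to 0.140). By RefSeq transcription start sites the shares were 23.8% and 26.2%. By RefSeq gene bodies, chosen after seeing the data, they were 9.10% and 10.2% for all genes and 33.6% and 36.5% for protein-coding ones, with an X share of 9.72% and 10.3%. The rule on gene bodies took peaks of any class, not only Intergenic, so it differs from the main rule in class as well as distance. Within 10 kb, 20.3% had an IgG peak and 16.2% another desert peak. Apart from what these settings fix by their construction, the cause of each move was not tested.

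GC content and motifs of the desert peaks were not run, since no genome was used here. The X share has no value without X and Y. No paired analysis was possible because the lists cover each antibody as a whole, and for the same reason no replicate was left out. The depth behind each list is unknown.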
